A study of Homo sapiens with 16 samples.

Results

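The centromere is the stretch of chromosome on which the kinetochore, the protein assembly that binds spindle microtubules, is built in mitosis. Nucleosomes that hold the histone H3 variant CENP-A mark the site, the constitutive centromere-associated network (CCAN) binds them throughout the cell cycle, and the KNL1, MIS12 and NDC80 complexes form the outer layer that grips the microtubule. Many of these genes are transcribed mainly in cells that go through G2 and mitosis, so their RNA in a tumor is commonly read as a sign of cycling cells. The 36 genes described here were taken by symbol from the 23260 in the expression table. They encode CENP proteins, the factors that load CENP-A, the MIS12, KNL1, NDC80, SKA and ROD-ZW10-ZWILCH (RZZ) complexes, and the shugoshins. All 36 passed the filter on low values. Older symbols are kept as in the table: CASC5 is KNL1, ITGB3BP is CENP-R, and SGOL1 and SGOL2 are SGO1 and SGO2. CENPJ carries a CENP name, but its protein is known from the centriole.

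The tumors were xenografts of A375, an established human melanoma cell line with mutant BRAF, carried on each flank of NOG mice. These mice are severely immunodeficient. Treatment was intraperitoneal and lasted until day 5. Control mice received vehicle. J mice received JQ1, an inhibitor of BET bromodomain proteins, at 50 mg/kg daily. V mice received Vemurafenib, an inhibitor of mutant BRAF, at 25 mg/kg per dose, 2 times a day. J+V mice were given the 2 agents together. Each of the 4 groups held 4 tumors from 2 mice, all of 1 cell line, so the tests measure the spread between tumors and only 2 animals stand behind each group. Tumors are named by mouse and flank. Values in each tumor are given in the order 2L, 2R, 5L and 5R for control, 26L, 26R, 29L and 29R for J, 16L, 16R, 19L and 19R for V, and 33L, 33R, 34L and 34R for J+V.

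The values were FPKM, fragments scaled to transcript length and library total, which allow levels of different genes to be compared. Their sum over all symbols was 970443 to 1406990 per tumor. The depth behind a value was unknown, since the steps between low values were smeared and gave no whole reads. Of the melanocyte lineage markers, SOX10, MITF, MLANA and S100B were measured in every group, whereas PMEL and TYR stayed at or below 0.305 FPKM in all tumors. Markers of lymphocytes and endothelium were low. MS4A1 was listed at 0 in all tumors and CD3E reached at most 0.0507 FPKM. None of 6 lymphocyte or 5 endothelial markers passed the filter, while 2 of 5 macrophage and all 6 fibroblast markers did. Host cells are of mouse and reads were mapped to the human genome, so low values do not show that such cells were few. The summed FPKM of 6 fibroblast markers was 36.2 to 121 in control, 57.3 to 74.1 in J, 55.5 to 112 in V and 62.4 to 115 in J+V tumors. In J+V against control, 3 of these 6 and 2 of 4 melanocyte markers were higher (16.6% of all genes tested). None of either list was lower (20.5% of all genes tested), and neither of the 2 macrophage markers passed. The part of these cells in the results below was not tested.

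Control tumor 5R stood apart from the other tumors in base composition. With the genes ranked into 5 equal bins by GC content, the lowest bin in 5R lay at -0.31 on the log2 scale relative to its level over all tumors and the highest bin at 0.37. The other 15 tumors spanned -0.06 to 0.11 in the lowest bin and -0.19 to 0.18 in the highest. Of the 36 genes, 25 had their lowest control value in 5R, against 28.4% of all genes tested. This held for 22 of the 24 in the lower 2 bins and for 3 of the 12 others. Relative to the other control tumors, SKA2 was lowest in 5R, at -2.39 on the log2 scale, and CENPT highest, at 0.57. For results on the 36 genes that rest on 5R, values or test outcomes without it are given beside them.

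**Figure D1:**
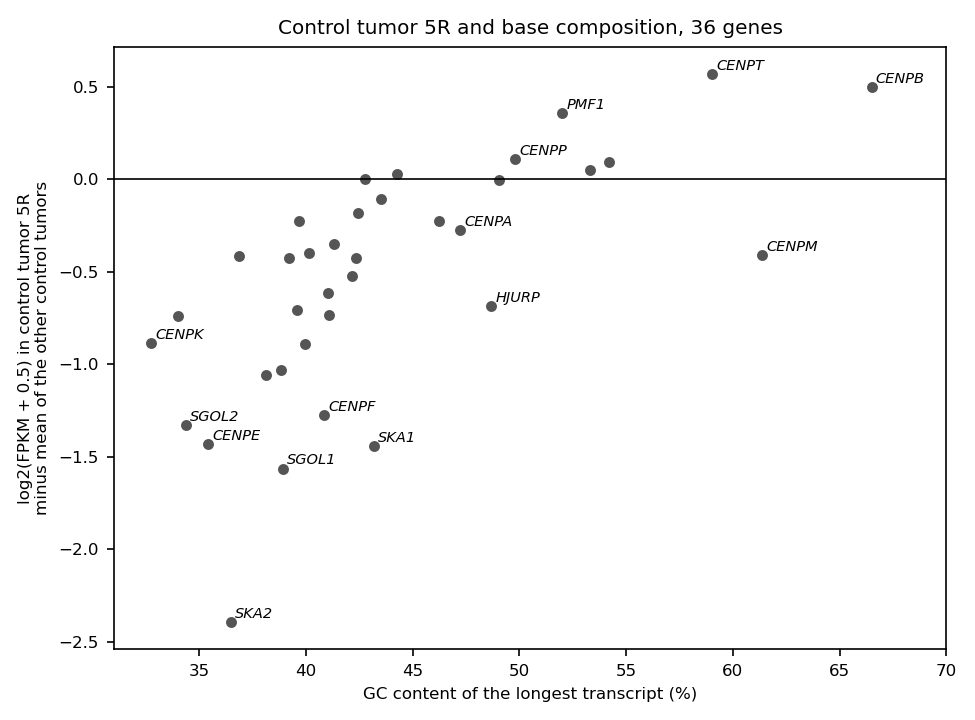
Each point is 1 of the 36 genes, with the GC content of its longest transcript in percent on the x axis and its log2(FPKM + 0.5) in control tumor 5R minus the mean of the other 3 control tumors on the y axis. Most genes of low GC content lie below the line at 0, down to SKA2. CENPT, CENPB and PMF1 of higher GC content lie above it, whereas CENPM, with 61.4% GC, lies at -0.41.

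Promoters of genes of the late cell cycle often carry the cell cycle genes homology region (CHR), whose core is TTTGAA, and the CCAAT box. RefSeq windows of 250 bases before to 50 after the transcription start (GRCh38.p14) were matched for 31 of the 36 genes, the exceptions being CENPH, CENPM, CENPL, CASC5 and CENPJ. TTTGAA lay on either strand of 12 of the 31 (38.7%) and of 18.2% of the windows of 27305 genes. It was in 11 of the 23 matched genes that fell in J+V against control and in 1 of the 8 that were not called, SPC25. CCAAT was in 19 of 31 (61.3%, all genes 39.7%). The E2F motifs TTTCGCGC, TTTGGCGC, TTTCCCGC and TTTGCCGC together were in 3 of 31 (9.68%, all genes 3.99%). None of these motifs contains another, and a match of letters is no evidence that a factor binds there. Windows with the core near the start are shown for NDC80 and NUF2, which fell, beside SPC25 of the same complex, which was not called, and for CENPA, CENPN and SKA3 of other complexes. Each runs from 70 bases before to 25 after the start, with the CHR core in capitals (TTCAAA where it lies on the other strand).
CENPA: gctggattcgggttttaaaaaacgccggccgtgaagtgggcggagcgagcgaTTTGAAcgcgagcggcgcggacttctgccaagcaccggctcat
CENPN: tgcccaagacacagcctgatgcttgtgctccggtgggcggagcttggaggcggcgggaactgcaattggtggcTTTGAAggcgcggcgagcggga
NDC80: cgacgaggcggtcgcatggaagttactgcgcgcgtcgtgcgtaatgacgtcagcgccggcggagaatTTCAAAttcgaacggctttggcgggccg
NUF2: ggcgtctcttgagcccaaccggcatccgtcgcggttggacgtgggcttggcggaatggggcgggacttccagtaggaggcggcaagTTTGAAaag
SKA3: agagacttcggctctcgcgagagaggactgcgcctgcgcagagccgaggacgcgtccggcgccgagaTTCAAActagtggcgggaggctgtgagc
SPC25: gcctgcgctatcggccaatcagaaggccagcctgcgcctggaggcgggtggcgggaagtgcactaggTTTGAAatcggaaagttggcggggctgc
These are CENPA (chr2:26785986-26786080, plus strand), CENPN (chr16:81007144-81007238, plus strand), NDC80 (chr18:2571487-2571581, plus strand), NUF2 (chr1:163321884-163321978, plus strand), SKA3 (chr13:21176528-21176622, minus strand) and SPC25 (chr2:168890406-168890500, minus strand), all in GRCh38.p14. The core lies 3 bases before to 3 after the start in NDC80, SKA3 and SPC25, on the opposite strand in NDC80 and SKA3, so a core at this place was shared by genes that fell and one that was not called.

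Of the 36 genes, 27 had lower levels in J+V tumors compared with control and none had a higher level, against 20.5% lower and 16.6% higher among the 13426 genes tested (limma, Benjamini-Hochberg adjusted p below 0.05). Changes below are log2 fold changes of FPKM + 0.5, with the standard error (SE) and this adjusted p. The median log2 fold change of the 36 was -0.89, and that of all genes -0.03. CENP-A and its loading factors, the CENP-H/I/K/M and CENP-L/N groups, the KNL1 complex, the SKA complex and the corona proteins fell in all their members. Among these, CENPL, SKA2 and CENPE were called in only 26, 17 and 10 of 37 other settings, such as other scalings or left-out tumors. Of the 36 genes, 9 did not pass the test: CENPQ, ITGB3BP, CENPT, MIS12, NSL1, SPC25, ZWILCH, SGOL2 and CENPJ. The 4 J+V tumors lay below all 4 control tumors for 19 genes (16.4% of all genes), and below the other 3 for 29 genes when 5R was left out (22.1% of all genes). In bulk tumor RNA, fewer dividing cells and less of these RNAs per cell cannot be told apart. The count of the 36 that passed was 29 without control tumor 5R (39.0% of all genes passed, in either direction) and 30 after correction for GC content (38.8%). It was 17 without J+V mouse 33 (21.2%), with a median of -0.54, and 18 without control mouse 2 (32.2%).

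**Figure D2:**
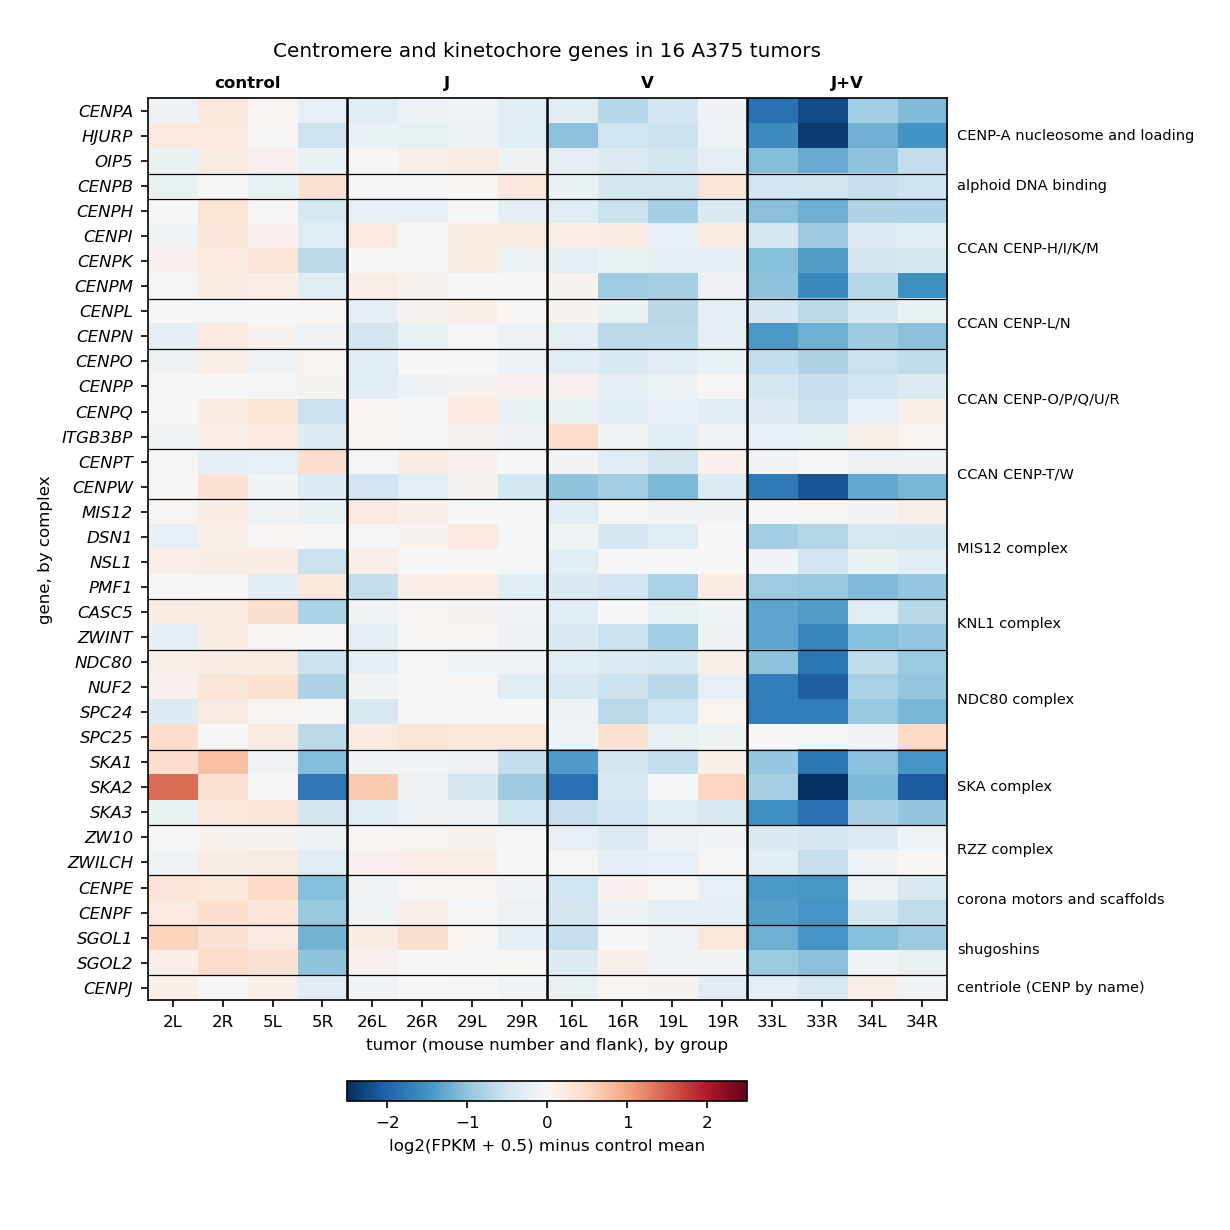
Rows are the 36 genes by complex and columns the 16 tumors by group; color is log2(FPKM + 0.5) minus the mean of the 4 control tumors, from -2.5 (blue) to 2.5 (red). The J+V columns are blue in most rows and deepest in 33R, where CENPT, MIS12, SPC25, ITGB3BP and CENPJ stay pale, and SKA2 is uneven within every group.

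CENP-A, the histone variant that marks the centromere, and HJURP, the chaperone that deposits it, were lower in J+V than in each of the other groups. CENPA (GRCh37 chr2:26987157-27023935) stood at 17.04, 22.4, 19.7 and 16.1 FPKM in control and 4.74, 3.58, 10.1 and 8.37 in J+V tumors. J tumors had 15.1, 16.7, 17.2 and 15.2 and V tumors 15.2, 11.1, 13.3 and 17.02. All J+V tumors were below all others, and those of mouse 33 were lowest. The log2 fold change of CENPA was -1.52 (SE 0.232, adjusted p = 0.000282) against control, -1.30 (SE 0.232, adjusted p = 0.00142) against J and -1.12 (SE 0.232, adjusted p = 0.00749) against V. HJURP (chr2:234742062-234763212) was at 16.3, 16.2, 14.05 and 9.45 FPKM in control and 4.25, 2.25, 5.68 and 4.52 in J+V tumors, with 12.2, 12.1, 12.5 and 10.99 in J and 6.46, 9.55, 9.25 and 12.7 in V tumors. No J+V tumor reached the lowest value of another group, and V tumor 16L was the nearest. This was the largest fall of the 36, -1.66 (SE 0.228, adjusted p = 0.000132) against control, -1.47 (SE 0.228, adjusted p = 0.000597) against J and -1.12 (SE 0.228, adjusted p = 0.00671) against V. OIP5, the Mis18 beta subunit that prepares the centromere for new CENP-A, fell from 8.33 ± 1.25 to 3.95 ± 0.871 FPKM (SD, n = 4), a change of -0.996 (SE 0.127, adjusted p = 8.39e-05). Its exons overlap those of the antisense gene OIP5-AS1 over 63.2% of their length, and the sources used here do not say whether counting used strand.

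CENP-B, which binds the alphoid satellite repeat of human centromeres, had 13.7, 15.6, 13.8 and 20.5 FPKM in control and 11.1, 11.3, 10.4 and 10.9 in J+V tumors. Values in J were 15.9, 16.1, 16.2 and 19.1 and in V 13.8, 11.4, 11.4 and 19.5. The J+V tumors were close together and below the rest, though V tumors 16R and 19L were just above them. CENPB changed by -0.51 (SE 0.146, adjusted p = 0.0142) against control and by -0.60 (SE 0.146, adjusted p = 0.00826) against J, and the change against V, -0.32 (SE 0.146, adjusted p = 0.159), did not pass. Without control tumor 5R, the highest of the control tumors for CENPB, the change against control was -0.38 (adjusted p = 0.0466). The call against control was kept in 34 of 37 other settings, but not without control mouse 5 or J+V mouse 34.

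The CCAN subunits CENP-H, CENP-I, CENP-K and CENP-M, which form 1 subcomplex on the CENP-A nucleosome, all fell against control and against J. CENPM, the gene with the lowest level among the 36, had 1.93, 2.34, 2.32 and 1.52 FPKM in control, 2.32, 2.15, 1.99 and 1.93 in J, 2.16, 0.846, 0.909 and 1.76 in V and 0.724, 0.322, 1.03 and 0.359 in J+V tumors. V tumors 16R and 19L reached into the J+V range, while the J tumors stayed near control. Its change was -1.22 (SE 0.22, adjusted p = 0.000809) against control and -0.78 (SE 0.22, adjusted p = 0.0317) against V. CENPH was at 68.98, 86.4, 69.6 and 51.8 FPKM in control, 59.4, 58.9, 67.02 and 58.4 in J, 54.8, 46.03, 37.6 and 52.9 in V and 32.6, 29.1, 40.1 and 39.6 in J+V tumors. The V tumors lay between, 1 of them within the J+V range, and CENPH changed by -0.95 (SE 0.146, adjusted p = 0.000295) against control. Its change against V, -0.43 (SE 0.146, adjusted p = 0.0657), did not pass. CENPK changed by -0.83 (SE 0.209, adjusted p = 0.00644) from 42.2 ± 11.5 FPKM (SD, n = 4), with control tumor 5R (25.6 FPKM) inside the J+V range of 15.3 to 30.2. Without 5R the change of CENPK was -1.05. CENPI fell least, with a change of -0.49 (SE 0.146, adjusted p = 0.0162) from 4.42 ± 0.873 FPKM (SD, n = 4), and changed against V by -0.58 (SE 0.146, adjusted p = 0.018).

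CENP-L and CENP-N form the CCAN pair that reads the CENP-A nucleosome. CENPN had 22.7, 32.1, 28.8 and 25.5 FPKM in control and 9.65, 11.3, 14.2 and 12.8 in J+V tumors, with 19.3, 23.7, 26.2 and 24.3 in J and 22.9, 16.9, 16.995 and 23.01 in V tumors. The J+V tumors were below all others, and the change was -1.15 (SE 0.14, adjusted p = 5.86e-05) against control and -0.71 (SE 0.14, adjusted p = 0.00581) against V. CENPL was flatter, at 11.3, 10.7, 11.3 and 11.3 FPKM in control, 9.38, 11.9, 12.3 and 11.3 in J, 11.9, 9.92, 6.67 and 9.41 in V and 8.21, 6.77, 8.27 and 9.91 in J+V tumors. V tumor 19L was the lowest of all, and the fall against control, -0.42 (SE 0.14, adjusted p = 0.0298), was lost in 11 of 37 other settings, among them without control tumor 5R.

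The CENP-O/P/Q/U/R subcomplex, which ties the CCAN to Polo-like kinase, was split. CENPO was at 5.19, 6.39, 5.40 and 6.04 FPKM in control, 4.69, 5.65, 5.77 and 5.10 in J, 4.64, 4.27, 4.66 and 5.08 in V and 3.54, 3.21, 3.76 and 3.53 in J+V tumors. The J+V tumors were lowest, the V tumors also lay below every control tumor, and the change was -0.64 (SE 0.0858, adjusted p = 0.000117) against control and -0.36 (SE 0.0858, adjusted p = 0.0141) against V. CENPP had 2.84, 2.95, 2.90 and 3.17 FPKM in control, 2.37, 2.65, 3.20 and 3.22 in J, 3.26, 2.42, 2.65 and 3.10 in V and 2.06, 1.82, 1.98 and 2.25 in J+V tumors. No J+V tumor overlapped another group, and the fall was -0.46 (SE 0.105, adjusted p = 0.00375). Exons of CENPP and CENPO overlap genes on the other strand, IPPK over 39.9% and ADCY3 over 27.0% of their length. CENPQ had 12.1 to 22.8 FPKM in control and 12.1 to 19.8 in J+V tumors, and its interval of -0.58 to 0.12 around -0.23 held 0. The lowest of the control tumors for CENPQ was 5R, at 12.1 FPKM. Without 5R the change of CENPQ was -0.41 and passed in limma (adjusted p = 0.0274), and it also passed after correction for GC content. ITGB3BP (CENP-R), the most abundant of the 36, had 96.2 ± 16.9 FPKM in control and 92.7 ± 11.4 in J+V tumors (SD, n = 4). Its log2 fold change was -0.04 with a 95% interval of -0.35 to 0.26, which leaves out a fall as large as that of CENPO.

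CENP-T and CENP-W, histone-fold partners that bridge centromeric DNA to the NDC80 complex, differed. CENPW was at 44.2, 55.5, 41.5 and 34.6 FPKM in control, 30.9, 37.1, 45.9 and 32.003 in J, 21.2, 23.4, 19.7 and 34.3 in V and 12.4, 9.48, 17.6 and 19.4 in J+V tumors. All V tumors were below all control tumors, and all J+V tumors below all V tumors. CENPW changed by -1.58 (SE 0.217, adjusted p = 0.000132) against control, -1.32 (SE 0.217, adjusted p = 0.000861) against J and -0.74 (SE 0.217, adjusted p = 0.0355) against V. CENPT had 4.54, 3.73, 3.78 and 6.17 FPKM in control, 4.27, 5.15, 4.83 and 4.47 in J, 4.22, 3.63, 3.13 and 4.84 in V and 4.08, 4.52, 3.996 and 4.03 in J+V tumors. The 4 groups overlapped, and the change of -0.09 had an interval of -0.38 to 0.19 and turned to 0.05 without control tumor 5R, where CENPT was highest.

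In the outer kinetochore, the MIS12 complex, the link between CCAN and NDC80, was split in the same way. PMF1 had 15.7, 16.1, 12.97 and 19.2 FPKM in control, 10.2, 17.9, 17.9 and 12.8 in J, 12.2, 11.2, 8.85 and 18.2 in V and 8.29, 7.94, 7.13 and 7.91 in J+V tumors. The J+V tumors were tightly grouped below all others, and the change was -0.98 (SE 0.188, adjusted p = 0.00125) against control and -0.61 (SE 0.188, adjusted p = 0.0446) against V. The readthrough gene PMF1-BGLAP shares 23.3% of the exon length of PMF1 on the same strand, so reads may have been divided between them. DSN1 was at 19.8, 25.5, 23.6 and 22.8 FPKM in control, 21.97, 24.3, 27.01 and 22.5 in J, 21.2, 16.95, 18.5 and 22.6 in V and 12.4, 13.6, 17.2 and 16.7 in J+V tumors. Only V tumor 16R came into the J+V range, and DSN1 changed by -0.61 (SE 0.116, adjusted p = 0.00121). MIS12 itself had 18.7 ± 2.05 FPKM in control, 19.8 ± 1.88 in J, 17.4 ± 1.42 in V and 19.1 ± 1.22 in J+V tumors (SD, n = 4). The log2 fold change of MIS12 was 0.03 with an interval of -0.16 to 0.22, and that of NSL1 -0.25 with -0.55 to 0.06. NSL1 at 3.45 FPKM in control tumor 5R was far below the other control tumors, and NSL1 passed the test without 5R.

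Both genes of the KNL1 complex, the platform on which spindle checkpoint proteins gather, fell. ZWINT had 24.5, 32.4, 29.4 and 28.5 FPKM in control, 23.9, 29.5, 29.996 and 26.1 in J, 22.2, 19.2, 15.4 and 26.1 in V and 11.1, 8.74, 13.4 and 14.3 in J+V tumors. No J+V tumor overlapped another group, with V tumor 19L nearest, and ZWINT changed by -1.25 (SE 0.156, adjusted p = 6.92e-05) against control and -0.77 (SE 0.156, adjusted p = 0.00635) against V. CASC5 (KNL1) was at 28.2, 28.8, 32.8 and 14.1 FPKM in control, 23.04, 25.7, 26.4 and 22.98 in J, 20.3, 25.1, 21.9 and 23.03 in V and 9.71, 9.12, 19.9 and 15.1 in J+V tumors. Control tumor 5R lay inside the J+V range, and CASC5 changed by -0.93 (SE 0.238, adjusted p = 0.00744) against control (-1.19 without 5R) and -0.79 (SE 0.238, adjusted p = 0.0406) against V.

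The NDC80 complex is the rod of 4 subunits that attaches to microtubules. NUF2 (chr1:163236366-163325554) had 82.7, 94.8, 99.96 and 44.9 FPKM in control, 72.4, 78.4, 79.9 and 62.9 in J, 59.02, 52.8, 47.2 and 67.001 in V and 22.8, 18.2, 43.5 and 39.2 in J+V tumors. SPC24 (chr19:11242196-11266483) had 23.9, 34.9, 31.3 and 30.7 FPKM in control, 22.5, 29.1, 30.04 and 30.2 in J, 27.3, 18.7, 21.1 and 31.3 in V and 8.63, 8.80, 15.4 and 13.3 in J+V tumors. For both genes the J+V tumors were below all others and mouse 33 was below mouse 34. NUF2 changed by -1.39 (SE 0.263, adjusted p = 0.00111) and SPC24 by -1.38 (SE 0.191, adjusted p = 0.000141) against control. Against V the changes were -0.94 (SE 0.263, adjusted p = 0.0301) for NUF2 and -1.07 (SE 0.191, adjusted p = 0.00357) for SPC24. NDC80, the subunit that contacts the microtubule, fell from 25.5 ± 5.66 to 11.9 ± 3.78 FPKM (SD, n = 4), a change of -1.10 (SE 0.207, adjusted p = 0.00111). The remaining subunit, SPC25, had 15.9, 11.6, 13.5 and 7.08 FPKM in control, 13.8, 14.8, 13.9 and 14.3 in J, 10.9, 15.05, 10.2 and 10.5 in V and 11.5, 11.3, 11.002 and 16.5 in J+V tumors. Its groups overlapped, and its change of 0.10 had an interval of -0.31 to 0.50, which lies above the estimates of the other 3 subunits. Without control tumor 5R, the lowest of the control tumors for SPC25, the change was -0.12.

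The SKA complex holds the kinetochore on depolymerizing microtubules. SKA3 fell from 15.97 ± 4.13 FPKM in control to 6.27 ± 2.17 in J+V tumors (SD, n = 4), a change of -1.31 (SE 0.205, adjusted p = 0.000331), without overlap. SKA2 was at 20.3, 9.80, 7.36 and 1.77 FPKM in control, 11.8, 6.63, 5.32 and 3.70 in J, 1.67, 5.47, 7.06 and 10.9 in V and 3.95, 0.854, 3.11 and 1.36 in J+V tumors. It varied more within each group than any other of the 36, its standard error was the largest, and its change of -1.64 (SE 0.609, adjusted p = 0.0463) was called in only 17 of 37 other settings. SKA1 had 7.94, 10.1, 5.50 and 2.49 FPKM in control, 5.53, 5.55, 5.21 and 3.72 in J, 1.86, 4.14, 3.62 and 6.42 in V and 2.74, 1.30, 2.59 and 1.78 in J+V tumors. Control tumor 5R lay inside the J+V range for SKA1, and its change was -1.32 (SE 0.351, adjusted p = 0.00889). Without 5R it was -1.69 for SKA1 and -2.25 for SKA2.

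In the RZZ complex, which recruits dynein and the checkpoint protein MAD1, ZW10 and ZWILCH moved little. ROD, listed as KNTC1, was counted below with the other centromere and kinetochore genes, and it fell more. KNTC1 changed by -0.51 (SE 0.1, adjusted p = 0.00137) against control and -0.60 (SE 0.1, adjusted p = 0.000945) against J. Its change against V, -0.24 (SE 0.1, adjusted p = 0.122), did not pass. ZW10 had 18.9, 20.9, 20.8 and 17.7 FPKM in control, 20.3, 20.5, 20.9 and 19.1 in J, 16.99, 15.3, 17.6 and 18.5 in V and 14.98, 14.4, 15.3 and 18.3 in J+V tumors. J+V tumor 34R was above control tumor 5R and within the V range, and ZW10 changed by -0.31 (SE 0.0809, adjusted p = 0.00848), the smallest of the 27 falls, and by -0.35 without 5R. ZWILCH was at 28.2, 34.2, 35.1 and 24.2 FPKM in control, 32.2, 33.9, 33.7 and 29.2 in J, 29.3, 25.8, 26.1 and 29.2 in V and 24.7, 20.03, 28.2 and 30.9 in J+V tumors. These groups overlapped, with an interval of -0.50 to 0.04 around -0.23.

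CENP-F, a large coiled-coil protein of the kinetochore corona, and CENP-E, its kinesin motor, differed strongly between the J+V mice. CENPF was at 94.5, 107, 97.9 and 40.9 FPKM in control, 74.3, 87.7, 78.1 and 71.9 in J, 57.9, 73.5, 67.97 and 68.5 in V and 30.3, 28.6, 58.8 and 51.2 in J+V tumors. CENPE had 27.6, 26.9, 30.8 and 10.2 FPKM in control, 20.8, 22.96, 23.04 and 20.6 in J, 15.5, 23.9, 22.5 and 19.1 in V and 7.81, 7.76, 19.8 and 16.8 in J+V tumors. For both, control tumor 5R was below the other control tumors and inside the J+V range, and mouse 33 was far below mouse 34. CENPF changed by -0.98 (SE 0.266, adjusted p = 0.01) against control, and by -1.30 without 5R. CENPE changed by -0.86 (SE 0.322, adjusted p = 0.0489), a call kept in 10 of 37 other settings, and by -1.21 without 5R.

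Shugoshins protect cohesin at the centromere until sister chromatids part. SGOL1 had 11.1, 9.73, 8.90 and 3.01 FPKM in control, 8.56, 9.92, 7.72 and 6.26 in J, 4.79, 7.48, 6.99 and 9.20 in V and 2.90, 2.35, 3.27 and 3.74 in J+V tumors. The J+V tumors were below all J and V tumors, and control tumor 5R lay among them. Without 5R the change of SGOL1 against control was -1.56. With all tumors it was -1.17 (SE 0.294, adjusted p = 0.00676) against control, -1.27 (SE 0.294, adjusted p = 0.00633) against J and -1.08 (SE 0.294, adjusted p = 0.0269) against V. SGOL2 was at 20.3, 25.04, 23.1 and 8.74 FPKM in control, 19.4, 18.01, 17.9 and 18.7 in J, 14.3, 19.6, 16.9 and 17.1 in V and 9.20, 8.44, 16.98 and 15.7 in J+V tumors. Its change of -0.56 (SE 0.269, adjusted p = 0.114) did not pass, and it passed without control tumor 5R or without J+V mouse 34. The centriole gene CENPJ had 13.5, 12.3, 13.4 and 10.1 FPKM in control, 11.5, 12.3, 11.8 and 11.4 in J, 10.8, 12.7, 13.1 and 10.1 in V and 10.5, 9.29, 13.9 and 11.5 in J+V tumors. Its groups overlapped, and the interval of its change was -0.38 to 0.12.

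**Figure D3:**
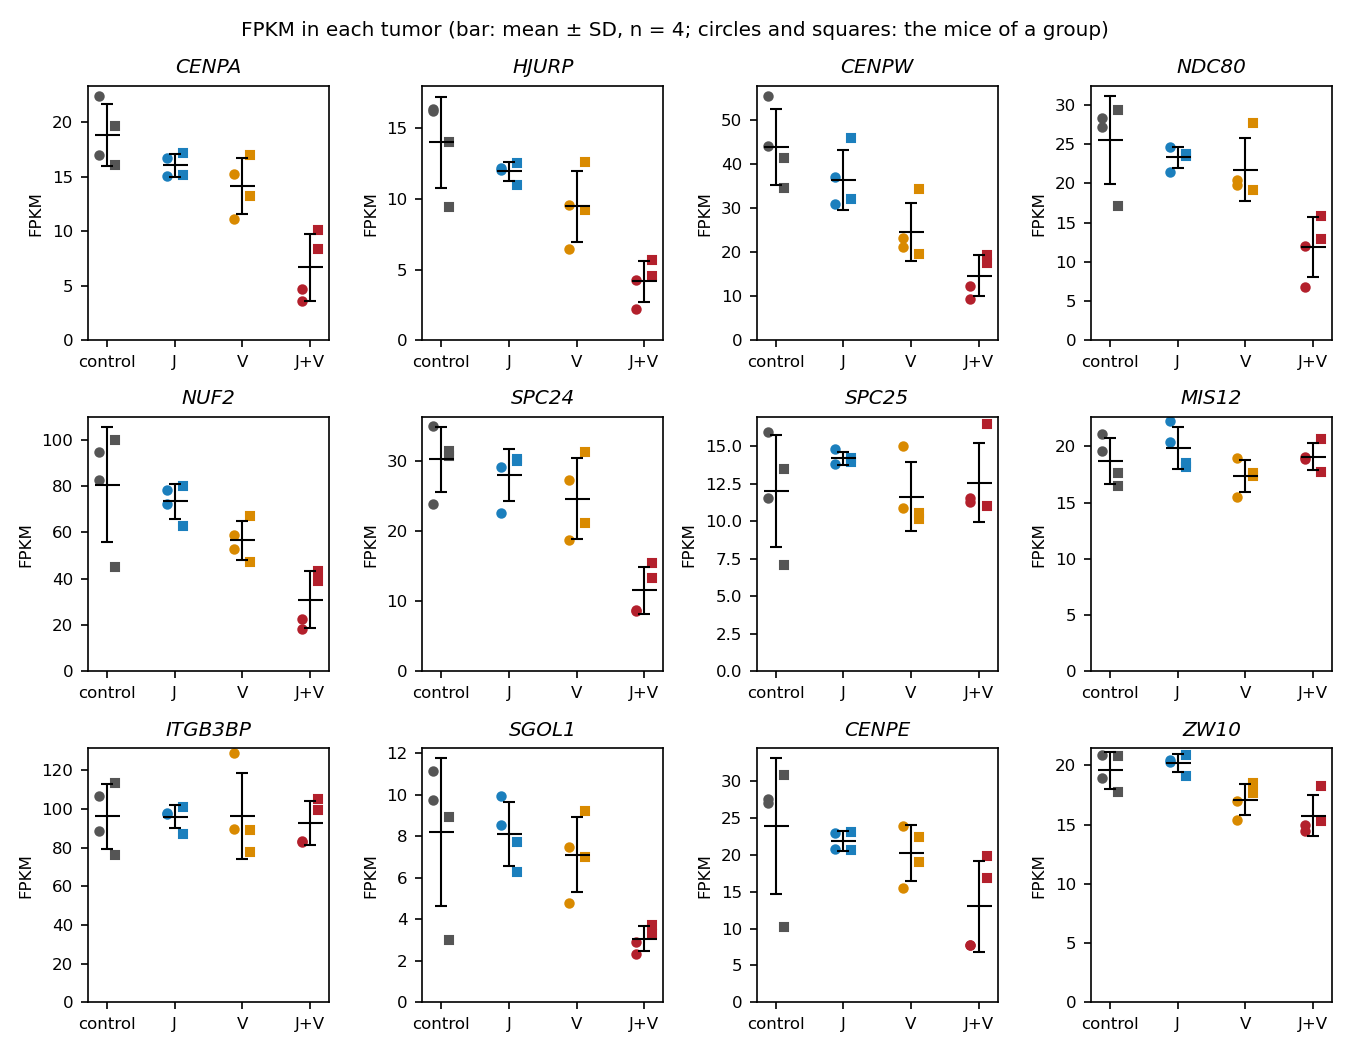
FPKM of 12 genes in each tumor, by group, on axes that start at 0; points are tumors, circles and squares the mice of a group, and bars the mean with SD of 4 tumors. NUF2, SPC24 and NDC80 are lowest in J+V, while SPC25, MIS12 and ITGB3BP lie level across the groups.

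Neither drug alone changed any of the 36 genes past the threshold. In J against control none passed in limma, and at an unadjusted p below 0.05 none did either (all genes 2.35% lower and 6.14% higher). Of all genes 0% were called. The log2 fold changes of J ran from -0.27 (SKA3) to 0.29 (SPC25), with a median of -0.02 (all genes 0.04). This median was -0.15 without control tumor 5R (all genes 0.05, of which 0.752% passed), -0.14 without control mouse 5, 0.04 without control tumor 5L and 0.06 without control mouse 2. In V against control none passed, and 0% of all genes did. At an unadjusted p below 0.05, 8 genes were lower in V and none higher, against 8.03% lower and 8.06% higher among all genes: HJURP, OIP5, CENPH, CENPN, CENPO, CENPW, ZWINT and ZW10. The largest change was that of CENPW, -0.84 (SE 0.217, adjusted p = 0.144). The median over the 36 was -0.23 (all genes 0.01), and the V tumors lay below all control tumors for CENPW, OIP5 and CENPO (1.99% of all genes). The median was -0.39 without control tumor 5R, -0.36 without control mouse 5 and -0.15 without control mouse 2. Of the 36, 2 passed without control tumor 5R (3.15% of all genes, in either direction), 1 without V tumor 19R (1.32%) and 1 without control mouse 5 (1.48%), shares near those of all genes.

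**Figure D4:**
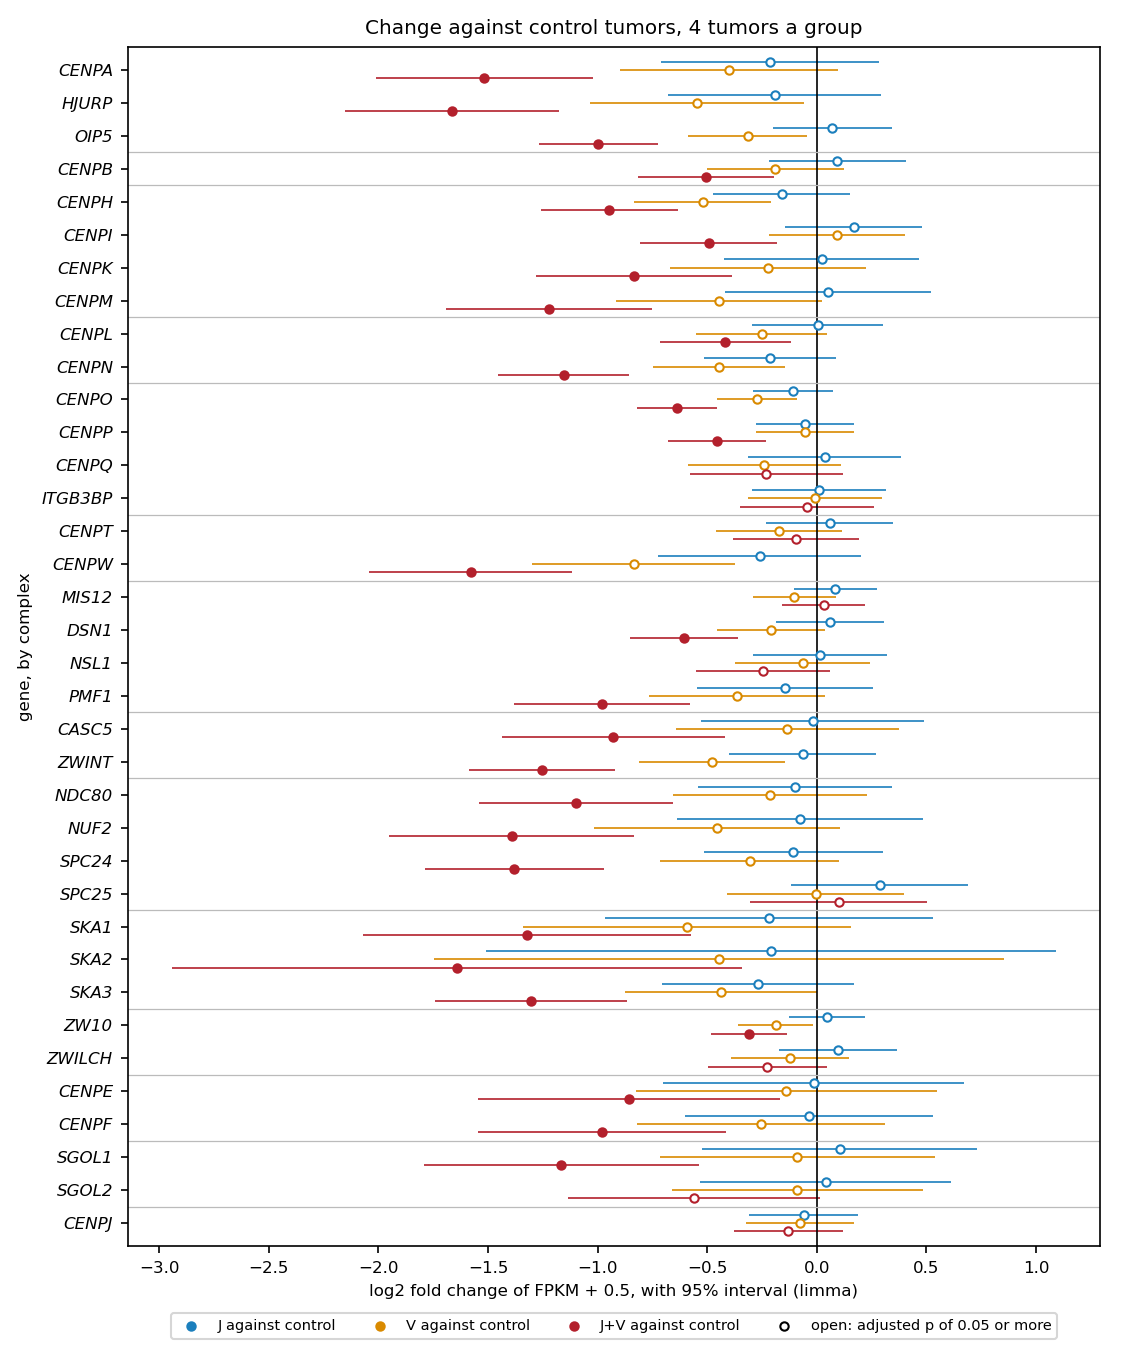
Log2 fold change of FPKM + 0.5 against control on the x axis for J (blue), V (orange) and J+V (red), by gene and complex; lines are 95% intervals from limma with 4 tumors a group, and open circles did not pass an adjusted p of 0.05. J and V points are all open, and 27 J+V points are filled, from -0.31 (ZW10) to -1.66 (HJURP).

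Against J, 25 of the 36 genes were lower in J+V and none higher (all genes 18.4% lower and 8.67% higher). The J+V tumors lay below all J tumors for 27 genes (22.2% of all genes). The 25 were those lower than in control except SKA2, at -1.43 (SE 0.609, adjusted p = 0.0939), and CENPE, at -0.84 (SE 0.322, adjusted p = 0.065). All 36 changes were below 0 (56.7% of all genes), from -1.47 for HJURP to -0.05 for MIS12, with a median of -0.84 (all genes -0.05). The count was 15 without J mouse 29 (8.46% of all genes passed, in either direction). It was 16 without J+V mouse 33 (10.6%), with a median of -0.49.

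Against V, 18 genes were lower in J+V and none higher (all genes 8.31% lower and 4.99% higher), and 18 did not overlap (9.15% of all genes). The falls ran from -1.12 for HJURP to -0.36 for CENPO, and the median of the 36 was -0.61 (all genes -0.03). CENPB, CENPH, CENPK, CENPL, SKA1, SKA2, ZW10, CENPE and CENPF, which were lower than in control, did not pass against V. This comparison rested on few animals: the count was 0 without J+V mouse 33 (2.46% of all genes passed, in either direction), with a median of -0.35. It was 4 without V mouse 19 (3.09%) and 11 without V mouse 16 (10.9%). Without 1 tumor it was 7 for V tumor 19R (5.19%), 8 for control tumor 5L (5.09%) and 10 for J+V tumor 33R (7.7%).

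J+V was next compared with the sum of the 2 single-drug changes on the log2 scale. For 33 of the 36 genes the change in J+V was below that sum (61.5% of all genes), with a median departure of -0.50 (all genes -0.07). None of the 36 passed in limma (all genes 0%), and 15 were below the sum at an unadjusted p below 0.05 (9.5% of all genes). The lowest unadjusted p was that of OIP5, whose departure was -0.75 (SE 0.18, adjusted p = 0.125), and the lowest estimate that of SGOL1, -1.18 (SE 0.416, adjusted p = 0.257). SPC24 departed by -0.97 (SE 0.27, adjusted p = 0.167). CENPT, MIS12 and CENPJ lay above 0, by 0.02, 0.05 and 0.01. Without J+V mouse 34, 10 of the 36 passed (2.7% of all genes, in either direction) and the median was -0.76, and without J+V tumor 34L 1 passed (0.946%). Without J+V mouse 33 none passed (0.0223%) and the median was -0.26. The 3 comparisons with control and this one share the control tumors.

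Values were mostly lower in V than in J, but none of the 36 differences passed in limma (all genes 0.127% higher and 0.156% lower in J). None of the 36 had a log2 difference of J minus V below 0 (41.1% of all genes did), and the median difference was 0.23 (all genes 0.04). At an unadjusted p below 0.05, 7 genes were higher in J (7.92% of all genes). J tumors lay above all V tumors for OIP5, CENPH, CENPK and ZW10 (4.77% of all genes). The largest difference was that of CENPW, 0.57 (SE 0.217, adjusted p = 0.299). Of the 36 genes, 32 had their lowest group mean in J+V (43.9% of all genes), the exceptions being CENPQ, CENPT, MIS12 and SPC25. The order J+V, V, J and control from low to high held for 23 of the 36, and its share of all genes was not counted.

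The 2 mice of the J+V group differed. Both tumors of mouse 33 were below both of mouse 34 for 25 of the 36 genes (21.2% of all genes), and above them for CENPB, CENPT and PMF1. The mean over the 36 of log2(FPKM + 0.5), with the mean of the control tumors subtracted, was -0.89, -1.15, -0.56 and -0.63 in the J+V tumors. In control tumors it was 0.071, 0.21, 0.12 and -0.40, in J tumors -0.068, 0.021, 0.039 and -0.13 and in V tumors -0.33, -0.30, -0.37 and -0.068. Every J+V tumor was below every other tumor. For 24 of the 36 genes the lowest of the 16 values was in 33R, and the share of all genes was not counted. The gap between the mice was widest for CENPE, at -1.44 in mouse 33 and -0.27 in mouse 34. It was -2.05 and -0.98 for CENPA, -1.90 and -0.89 for NUF2, and -0.69 and -0.59 for CENPO. With the mean of each mouse's tumors as 1 value, 23 genes passed in J+V against control (28.3% of all genes, in either direction), 19 against J (16.8%) and 2 against V (1.74%).

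By complex, all J+V tumors were below all others in 5 of the 12 complexes with 2 or more genes, namely CENP-A and loading, CENP-H/I/K/M, MIS12, KNL1 and NDC80, and overlapped another group in the other 7. For the shugoshins, at -1.07, -1.26, -0.57 and -0.54 in J+V tumors, the overlap was with control tumor 5R alone, at -1.09. The next lowest tumor outside J+V was V tumor 16L, at -0.45. The mean over CENP-A and its loading factors was -1.51, -1.95, -1.03 and -1.08 in the J+V tumors. For the NDC80 complex it was -1.12, -1.40, -0.61 and -0.64, and for the KNL1 complex -1.32, -1.52, -0.69 and -0.83. The corona genes had -1.41, -1.46, -0.29 and -0.51, with tumor 34L inside the range of the V tumors and control tumor 5R, at -1.01, inside that of J+V. The MIS12 complex had -0.45, -0.53, -0.44 and -0.38, with the tumors of both mice close together.

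**Figure D5:**
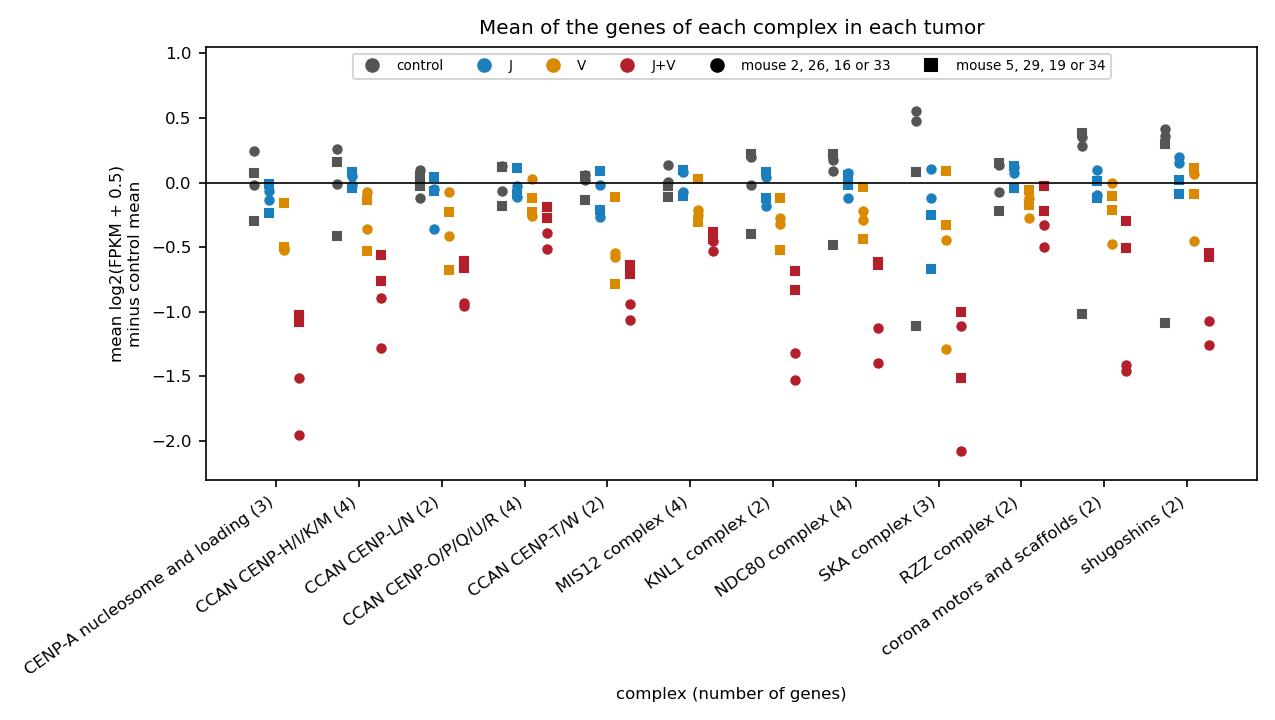
Mean over the genes of each complex of log2(FPKM + 0.5) minus the control mean, 1 point per tumor; colors are groups, and circles and squares the mice. J+V tumors are below all others in 5 of the 12 complexes, circles (mouse 33) lie below squares (mouse 34) in 11, all but SKA, and control tumor 5R is the low gray square for SKA, corona and shugoshin genes.

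Other genes of the pathway were counted in the same way. Of 14 other centromere and kinetochore genes, 7 fell and 1 rose in J+V against control (all genes 20.5% lower and 16.6% higher). Their median was -0.38. MLF1IP (CENP-U), the partner of CENP-Q, changed by -1.19 (SE 0.206, adjusted p = 0.000632), from 47.8 ± 13.8 to 20.4 ± 5.19 FPKM (SD, n = 4). CENPC1 (CENP-C), the scaffold of the CCAN, was the 1 that rose, by 0.43 (SE 0.153, adjusted p = 0.0405), from 9.10 to 16.9 FPKM in control to 18.4 to 21.5 in J+V tumors. J tumors had 15.8 to 18.7 and V tumors 15.2 to 20.7 FPKM. Its changes against J, 0.13 (SE 0.153, adjusted p = 0.544), and V, 0.14 (SE 0.153, adjusted p = 0.575), did not pass. Its SD was 3.83 FPKM in control and 1.34 in J+V tumors (n = 4), and its change without 5R is not given. CLASP1, CLASP2, NDE1, CENPV and STRA13 were among the genes that did not pass against control. Of these 14 genes 7 were lower than in J (18.4% of all genes) and 4 than in V (8.31%), with no rise (8.67% and 4.99%). Among 15 genes of the spindle checkpoint and the chromosomal passenger complex, which watch and correct attachments, 14 fell in J+V against control (20.5% of all genes). Of the 15, 14 fell against J (18.4%) and 10 against V (8.31%), and none was higher (16.6%, 8.67% and 4.99%). BUB1, a checkpoint kinase, changed by -1.27 (SE 0.206, adjusted p = 0.000407), the kinase AURKB by -1.69 (SE 0.19, adjusted p = 3.8e-05) and MAD2L1, the checkpoint effector, by -1.06 (SE 0.179, adjusted p = 0.00054). None of the 15 was called in J or in V against control (0% of all genes in each).

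All 8 proliferation markers fell in J+V against control, J and V alike (20.5%, 18.4% and 8.31% of all genes). Their median was -1.19 against control. MKI67, which encodes the Ki67 antigen of cycling cells, changed by -0.99 (SE 0.196, adjusted p = 0.00148), with 22.1 to 30.01 FPKM in control and 9.52 to 21.5 in J+V tumors. The summed FPKM of the 8 markers was 443 to 681 in control, 471 to 545 in J, 397 to 519.8 in V and 163 to 324 in J+V tumors. These markers moved with the centromere and kinetochore genes, and their part in the result was not tested.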

How the data were processed

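RNA from 16 A375 xenograft tumors was sequenced after depletion of ribosomal RNA (RiboZero, ScriptSeq v2). Per the labels, bcl2fastq, TopHat, Cufflinks and hg19 were used; the methods name TopHat2. Exact versions, and any step that removes mouse reads, were not found in the sources used here. The deposited table holds FPKM per gene symbol as the authors made it with Cufflinks, so length and library total are already divided out, and depth and counting error cannot be recovered. The study tested read counts, which were not used here.

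Groups came from the labels. A gene was kept where 4 or more of the 16 tumors reached 1 FPKM (13426 of 23260). Log2(FPKM + 0.5) was tested with limma 3.58.1 (R 4.3.3), with 4 groups, mouse as a block (duplicateCorrelation, consensus -0.0674), an intensity trend and 12 residual degrees of freedom. The consensus was negative, so the block did not widen the standard errors for tumors that share a mouse. Without the block, 25 of the 36 genes instead of 27 passed in J+V against control, and 4598 of all genes instead of 4979. P-values were adjusted by Benjamini-Hochberg over the kept genes, with a threshold of 0.05. The pseudocount understates changes of low genes. The fit was run on simulated data with independent tumors and no mouse effect. That check does not cover tumors that share a mouse. Positions and exon overlaps are from GENCODE 44 on GRCh37, promoters from RefSeq on GRCh38.p14.

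The genes and the lists of other genes were chosen with earlier results of these data known. In each complex, the 2 genes with the largest absolute change in J+V against control were given with values in every tumor, and MKI67, BUB1, AURKB and MAD2L1 were named in any case; SPC25 was given likewise after its values were seen. Alternatives covered the pseudocount, the filter, the scaling, the block, flank as a term, the groups fitted, the study's thresholds and left-out tumors and mice. Correction for GC content was added after the data were seen.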

Additional observations from a re-analysis of the deposited data

Results flagged for a closer look

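In 12 of the 144 groups of 4 tumors (36 genes in 4 groups), 1 tumor stood far from the other 3 by Dixon's test, where chance at 5% gives 7.2. The J tumors concerned were 29R for CENPB (19.1 FPKM), 29L for CENPH (67.0 FPKM) and 26L for SPC24 (22.5 FPKM). Among V tumors they were 19L for CENPI (3.71 FPKM), 16R for CENPK (36.1 FPKM) and for SPC25 (15.0 FPKM), 16L for NSL1 (4.26 FPKM) and 19R for NDC80 (27.7 FPKM). Among control tumors they were 2R for CENPL (10.7 FPKM) and 5R for NSL1 (3.45 FPKM). In J+V they were 33R for CENPT (4.52 FPKM) and 34R for SPC25 (16.5 FPKM). No cause was tested.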

How the results depend on the processing

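The counts of genes lower in J+V kept within 1.5 times of the main count under the other pseudocounts, scalings, the fit without the mouse block and flank as a term. No paired analysis was possible because each group held its own mice. With the study's thresholds (fold 2, p 0.01, false discovery rate 0.1), 12 genes were lower than in control instead of 27 (3.83% of all genes passed, in either direction), 11 than in J instead of 25 (2.7%), and 4 than in V instead of 18 (1.3%). The count against V was 11 with no filter on low values, 2 with the mean of the tumors of each mouse and 8 with only the groups compared, a fit that gives no value for the departure from the sum. Leaving out 1 tumor at a time gave 20 to 29 genes against control, 22 to 30 against J, 7 to 21 against V, 0 to 2 for V against control, 0 to 1 for the departure, and 0 to 0 for J against control and J against V. Leaving out 1 mouse at a time gave 17 to 27, 15 to 30, 0 to 22, 0 to 1, 0 to 10, and again 0 to 0. Scaling to a common sum per tumor moved the median change of all genes in J+V against control to -0.22 and that of the 36 genes to -1.10, with 28 called.

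Reversals concerned genes that were not called. In J+V against control, MIS12 (main value 0.03) was at -0.18 with a common sum per tumor and -0.068 after correction for GC content, and SPC25 (0.10) at -0.11 with a common sum. ITGB3BP (-0.04) was at 0.0054 with upper quartile scaling and 0.092 with quantile normalization, and CENPT (-0.09) at 0.066 after correction for GC content. Without 1 tumor each, the values ran over -0.028 to 0.10 for MIS12 and -0.12 to 0.26 for SPC25, below 0 without control tumor 5R or J+V tumor 34R, over -0.15 to 0.053 for ITGB3BP, and over -0.19 to 0.046 for CENPT, above 0 without 5R. Without 1 mouse each, they ran over -0.093 to 0.15 for MIS12, -0.13 to 0.32 for SPC25, -0.19 to 0.11 for ITGB3BP, -0.20 to 0.011 for CENPT and -0.30 to 0.043 for CENPJ. The cause was not tested. CENPA, HJURP, CENPN, CENPW, ZWINT, NDC80, NUF2, SPC24 and SKA3 were called against control in all 37 other settings. With 2 mice a group and FPKM only, neither the spread between animals nor the counting error of low genes such as CENPM could be resolved.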
